A study of Mus musculus with 4 samples.

Results

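Nuclear-encoded respiratory chain genes make the subunits of the 5 enzyme complexes of the inner mitochondrial membrane that are read from chromosomes in the nucleus. They were taken as the genes whose symbols begin with Ndufa, Ndufb, Ndufc, Ndufs or Ndufv and a digit, Cox4 to Cox8, Uqcr or Atp5, together with Sdha, Sdhb, Sdhc and Sdhd. Ndufa4l2, Cox4i2, assembly factors and pseudogenes were left out. Of the 82 symbols that matched, 80 had at least 20 UMIs (unique molecular identifiers, each counting 1 captured transcript) over the kept cells of the tdTomato libraries, out of 28001 features in the files. Cox7b2 and Cox8c fell below that minimum. By complex, 36 genes were assigned to complex I, 4 to complex II, 8 to complex III, 15 to complex IV and 17 to complex V. The rule uses gene symbols and this UMI minimum and no difference between cells, though earlier results of these data were known when it was set.

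The study sorted labelled mesenchymal cells from C57BL/6 mouse hearts and sequenced them by droplet single-cell RNA sequencing, to describe how these cells differ. Hic1 CreERT2 tdTomato+ cells carry a lasting mark set by Cre recombinase in cells that expressed Hic1. They came from undamaged hearts and from hearts 7 days after ligation of the left anterior descending coronary artery (LAD), a model of myocardial infarction. Each of these libraries pooled 3 hearts that cannot be separated. Hic1 Citrine+ cells, reporting present Hic1 expression, came from 3 undamaged hearts marked with antibody hashtags. PDGFRa H2BEGFP+ cells, in which a nuclear green protein reports the fibroblast gene Pdgfra, came from 4 hashed hearts, 2 undamaged and 2 taken 7 days after ligation, in 1 library. The labels do not tie a hashtag to a heart in either library. Each of the 3 citrine hashtags in use was taken as 1 heart. For the PDGFRa library they do not say which of the 4 hearts were ligated, so no injury comparison was made among them. The ages and the time of Cre induction are not given in the labels.

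After filtering, 2786, 4263, 10838 and 12567 cells were kept from the undamaged and the ligated tdTomato cells, the citrine cells and the PDGFRa cells in turn, with total deposited UMI counts of 9885698, 18028737, 97467582 and 122716283. The tdTomato libraries shared 8 barcodes, and the citrine and PDGFRa libraries shared 35. Clusters were named from marker genes, with the respiratory chain genes kept out of the clustering. In the undamaged tdTomato library the 8 fibroblast markers summed to 83543 CPM (counts scaled to the same UMI total in every class) in fibroblast-like cells, the 9 pericyte markers to 28147 in pericyte-like cells and the 8 smooth muscle markers to 19933 in smooth-muscle-like cells. Pericyte markers also reached 19704 CPM in the smooth-muscle-like cells, while smooth muscle markers were at 2367 in pericyte-like cells. The classes held 2432 fibroblast-like, 178 pericyte-like and 163 smooth-muscle-like cells in the undamaged library and 3124, 803 and 316 after ligation. Their median depths were 3655, 1573 and 2462 UMIs per cell undamaged and 4007, 2384 and 2704 after ligation. Each tdTomato group was 1 library, so ratios from these libraries carry exact 95% intervals that cover counting error only and no test.

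Electrons enter the respiratory chain at complex I (NADH dehydrogenase) or complex II (succinate dehydrogenase), pass through complex III (the cytochrome bc1 complex) to complex IV (cytochrome c oxidase) and reduce oxygen. Complexes I, III and IV pump protons, and complex V (ATP synthase) uses the gradient to make ATP. The nuclear genome encodes most subunits and the mitochondrial genome a few core ones, so both genomes must supply a working enzyme. Pericytes wrap capillaries and smooth muscle cells wrap larger vessels, and together they are called mural cells. Heart muscle itself uses tissue-specific isoforms of several complex IV subunits, such as Cox6a2, Cox7a1 and Cox8b.

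Promoters of respiratory chain genes are known for sites of nuclear respiratory factor 1 (NRF1), of ETS factors such as GABP, and of YY1. RefSeq promoter windows of GRCm38.p6, from 250 bases before to 50 bases after the start, were matched by symbol for 65 of the 80 genes. The NRF1 motif, GCGCA and GCGC with any base between them, was found on either strand in 17 of them (26.2%), against 5.19% of all 27025 genes and 11.6% of the 9528 genes measured in the tdTomato libraries. The ETS core CCGGAAG was found in 16 (24.6%), against 9.93% of all genes and 1906 of the 9528 measured. The YY1 motif AAGATGGC was found in 9 (13.8%), against 3.19% and 5.35%. At least 1 of these 3 motifs was held by 36 members (55.4%), against 16.4% of all genes and 32.4% of measured genes. The ETS and YY1 letters can overlap, since the first ends and the second begins with AAG. TCAAGGTCA, a site of estrogen-related receptors, was present in 2 members (3.08%, against 0.466% and 0.304%). ACGTG, the core letters of the hypoxia response element, was present in 16 (24.6%), a share lying between the 21.8% of all genes and the 29.4% of measured genes.

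The following stretches show the 150 bases before the start, 5′ to 3′ on the strand of the gene, for the member with the most UMIs in each complex that had an NRF1 or ETS match wholly inside it, with the matches in capitals. Ndufa4, whose level departed furthest from the rest of the set, is added for comparison and had no match in this window. The positions are chr4:123718187-123718336 for Ndufs5 (complex I), chr13:74350241-74350390 for Sdha (complex II), chr4:116075071-116075220 for Uqcrh (complex III), chr5:115348959-115349108 for Cox6a1 (complex IV), chr2:174464102-174464251 for Atp5e (complex V) and chr6:11907451-11907600 for Ndufa4, all on the minus strand.
Ndufs5: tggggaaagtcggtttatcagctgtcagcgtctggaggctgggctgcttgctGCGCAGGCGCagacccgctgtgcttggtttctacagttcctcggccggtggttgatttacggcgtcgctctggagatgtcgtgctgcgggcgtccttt
Sdha: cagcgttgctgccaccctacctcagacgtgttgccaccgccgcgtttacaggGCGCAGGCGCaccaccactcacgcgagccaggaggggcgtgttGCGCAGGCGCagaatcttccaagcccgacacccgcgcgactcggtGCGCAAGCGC
Uqcrh: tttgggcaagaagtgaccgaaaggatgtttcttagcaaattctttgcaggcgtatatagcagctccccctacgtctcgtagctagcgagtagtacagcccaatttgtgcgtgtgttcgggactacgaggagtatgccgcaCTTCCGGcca
Cox6a1: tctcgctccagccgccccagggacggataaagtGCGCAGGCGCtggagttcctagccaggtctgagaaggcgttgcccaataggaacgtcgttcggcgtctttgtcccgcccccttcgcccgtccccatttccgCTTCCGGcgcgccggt
Atp5e: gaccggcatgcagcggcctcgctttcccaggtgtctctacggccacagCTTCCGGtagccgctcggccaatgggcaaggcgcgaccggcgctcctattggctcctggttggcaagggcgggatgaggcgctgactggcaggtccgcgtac
Ndufa4: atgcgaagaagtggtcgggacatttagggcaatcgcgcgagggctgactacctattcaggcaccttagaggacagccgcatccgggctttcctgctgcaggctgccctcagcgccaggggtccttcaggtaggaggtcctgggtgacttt
Sdha held 3 NRF1 matches, beginning 98, 55 and 10 bases before the start, and Ndufs5 held 1 at 98 bases. Cox6a1 held an NRF1 match at 117 bases and an ETS match at 16 bases. Uqcrh and Atp5e held an ETS match each, 10 and 102 bases before the start. A match is a run of letters, not a shown binding site.

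Smooth-muscle-like cells devoted the largest share of their UMIs to the 80 genes, pericyte-like cells an intermediate share and fibroblast-like cells the smallest, in both tdTomato libraries. Undamaged fibroblast-like cells had 2.07% (95% interval 2.06 to 2.08) of their UMIs in these genes. Pericyte-like cells had 3.25% (3.19 to 3.31) and smooth-muscle-like cells 3.98% (3.92 to 4.04). After ligation the shares were 2.07% (2.06 to 2.08), 3.14% (3.12 to 3.16) and 4.39% (4.35 to 4.43). The order was the same in both libraries and the intervals of the 3 classes did not overlap in either. Over single cells, the median share was 2.03% in undamaged fibroblast-like cells (quartiles 1.80 to 2.26), 3.13% in pericyte-like (2.68 to 3.58) and 3.86% in smooth-muscle-like cells (3.41 to 4.56). Cells of 1 library are not replicates, and these quartiles describe cells, not hearts.

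**Figure D1:**
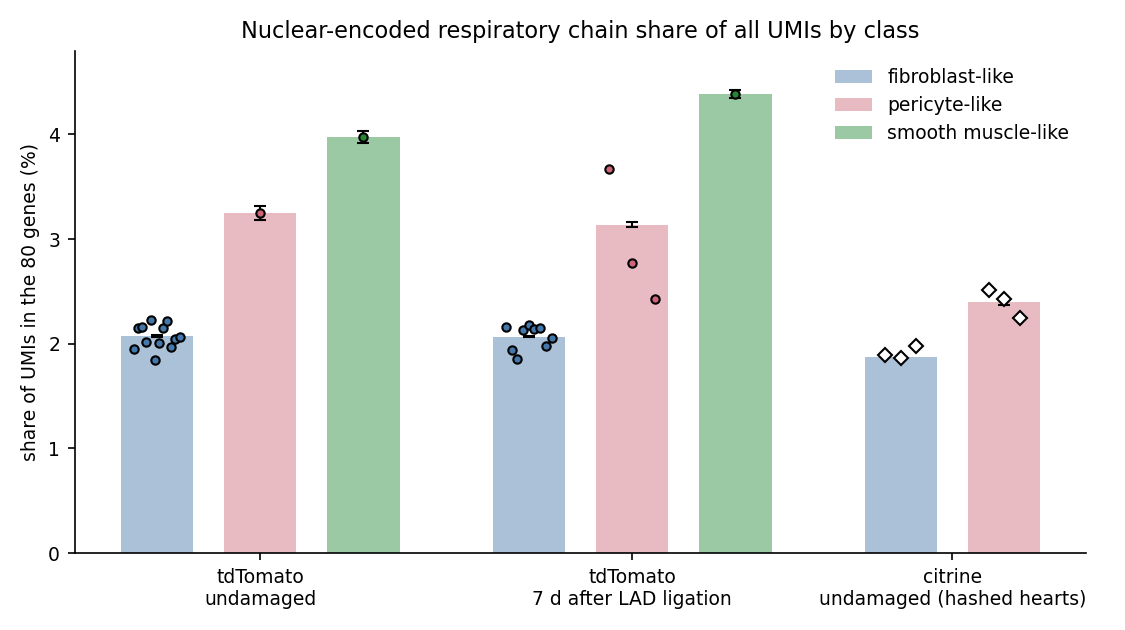
Share of all UMIs in the 80 genes (%, y axis) by class in the tdTomato and citrine libraries. Bars are class totals with exact 95% counting intervals, circles are clusters and diamonds are the 3 citrine hearts. In the tdTomato libraries every fibroblast-like cluster lies at or below 2.22% and the mural classes lie above them.

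Within the tdTomato libraries the fibroblast-like clusters spanned a small range. The 12 undamaged clusters ranged from 1.85% to 2.22% and the 9 clusters after ligation from 1.86% to 2.18%, so no fibroblast-like cluster reached the lowest mural cluster, at 2.43%. In the citrine library the range was wider and met the mural values, with fibroblast-like clusters from 1.55% to 2.34% and the pericyte-like class at 2.40%. The highest of these, of 1678 cells at a median of 5110 UMIs, lay above the pericyte-like share of citrine heart 3, given further on. Small clusters of other classes also had high shares. In the tdTomato libraries 20 cycling cells after ligation were at 2.92% and 13 undamaged endothelial cells at 2.35%. The 41 cycling cells of the citrine library were at 2.46%. The mural classes differed from fibroblast-like cells in other measured ways as well. Their median share of mitochondrial UMIs was 3.66% in pericyte-like and 4.89% in smooth-muscle-like cells, against 2.85% in fibroblast-like cells of the undamaged library. Cytosolic ribosomal protein genes took 72944 CPM in undamaged pericyte-like cells and 144970 in fibroblast-like cells. Dissociation and immediate early genes took 10853 CPM in pericyte-like, 34826 in smooth-muscle-like and 20540 in fibroblast-like cells. Dissociation can induce the genes of this list, which includes the heat shock genes Hspa1a, Hspa1b and Dnajb1. Of the 8 endothelial markers, Fabp4 had 438 UMIs in undamaged pericyte-like cells, the others 0 to 5, and Cdh5, Cldn5, Kdr and Tie1 were at 0. The 8 cardiomyocyte markers summed to 13.4 CPM in pericyte-like, 123 in smooth-muscle-like and 15.7 in fibroblast-like cells. In the smooth-muscle-like cells 45 of these UMIs were Tnnt2 and 5 of the 8 markers were at 0. The part of these differences in the respiratory chain shares was not tested. Among cells of 1000 to 3000 UMIs alone, the pericyte-like to fibroblast-like log2 ratio was 0.75 undamaged and 0.77 after ligation, against 0.65 and 0.60 over all cells. Undamaged, this window kept 173 of 178 pericyte-like and 688 of 2432 fibroblast-like cells. Depths of the classes inside it were not compared.

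Summed over the 80 genes, pericyte-like cells stood 1.57-fold (1.53 to 1.60) above fibroblast-like cells in undamaged hearts and 1.52-fold (1.505 to 1.529) after ligation. The difference was spread over the complexes. In undamaged hearts the ratio of the summed level was 1.49 for complex I, 1.70 for complex II, 1.73 for complex III, 1.58 for complex IV and 1.58 for complex V. After ligation these ratios were 1.40, 1.84, 1.67, 1.53 and 1.57. Ndufa4 is counted in complex I here by its name, though its protein is now known as a subunit of complex IV. The ratios of complexes I and IV, and their order, depend on that placement. A member counted as higher or lower when its ratio passed 1.5-fold. It entered only with at least 20 UMIs in the sums and at least 10 expected in the smaller sum, which 74 members met undamaged and 78 after ligation. Of those, 48 were higher and 1 lower in undamaged hearts, where 24.8% of all 3981 genes compared were higher and 24.0% lower. After ligation 42 were higher and 1 lower, where 24.9% of 10011 genes were higher and 16.7% lower. The median log2 ratio of the members was 0.68 undamaged and 0.66 after ligation, beside 0.14 and 0.21 for all genes. The single member past 1.5-fold downward was Ndufa4 in both libraries.

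The 6 members left out of the undamaged comparisons for low counts were Cox6a2, Cox6b2, Cox7a1, Cox8b, Atp5s and Atp5sl. The last pair carry ATP synthase names without being classical subunits of the enzyme.

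Members of complex I ranged widely, and 21 of 36 passed 1.5-fold higher undamaged and 19 after ligation. Ndufa13, the complex I member with the most UMIs, was at 535 CPM in fibroblast-like and 758 in pericyte-like cells undamaged, and at 536 and 680 after ligation. Ndufs7, which holds the last iron-sulphur cluster of complex I before ubiquinone, was at 208 and 536 undamaged, a ratio of 2.58 (2.18 to 3.03), the highest of complex I there. Ndufv3, an accessory subunit of the NADH-binding arm, was at 286 and 251, a ratio of 0.881 whose interval (0.690 to 1.11) includes 1. All 4 members of complex II passed 1.5-fold in both libraries. Sdhb, the iron-sulphur subunit, was at 192 in fibroblast-like and 339 in pericyte-like cells undamaged, and at 176 and 312 after ligation.

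Complexes III to V had the same direction. In complex III, 7 of 8 members passed 1.5-fold in both libraries, and the exception was Uqcrh, the hinge protein that has an ETS match in the promoter shown above, at 581 and 677 CPM undamaged (ratio 1.17). Cox8a, the ubiquitous form of complex IV subunit 8, was at 688 and 1693 undamaged and 756 and 1697 after ligation. Atp5b, the catalytic beta subunit of ATP synthase, was at 550 and 1438 undamaged, a ratio of 2.62 (2.37 to 2.89), and at 447 and 1203 after ligation, 2.69 (2.57 to 2.81). It was the highest ratio among members with at least 100 UMIs in undamaged hearts. After ligation Atp5sl stood higher, at 3.75 (2.45 to 5.68), on 39 and 63 UMIs. Cox7a2l lay below 1 in undamaged hearts at 0.806 (0.657 to 0.979). After ligation it was higher in pericyte-like cells, at 710 CPM against 574 in fibroblast-like cells.

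**Figure D2:**
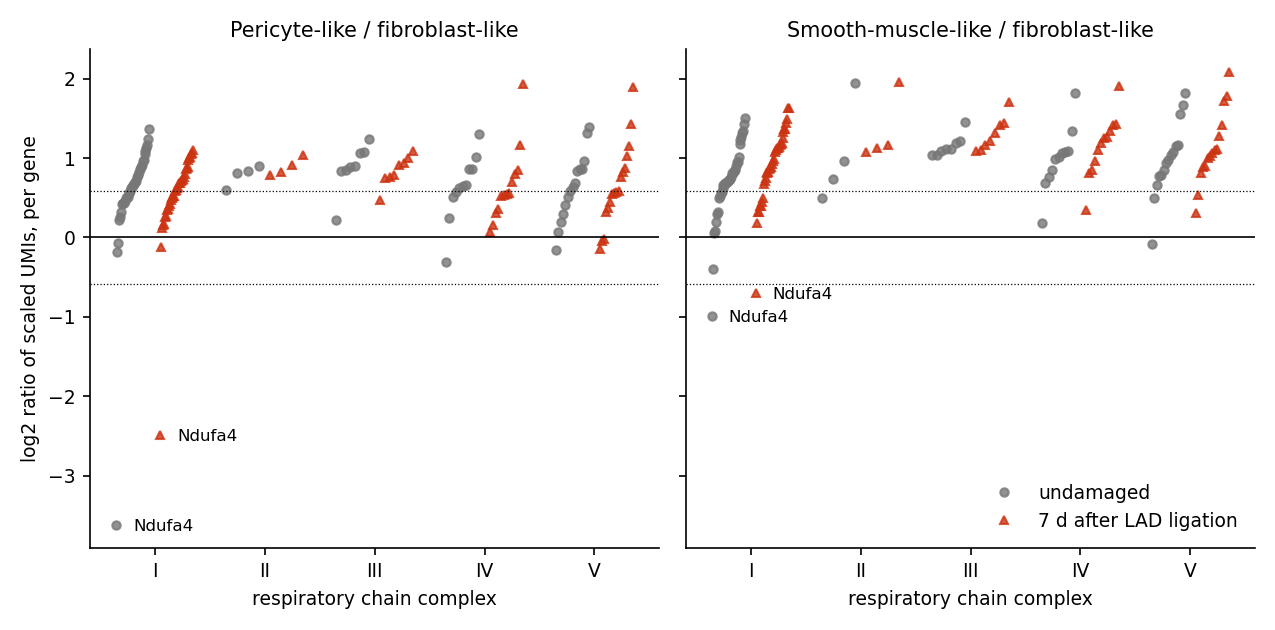
Log2 ratio of scaled UMIs for each member (y axis) by complex (x axis), pericyte-like over fibroblast-like on the left and smooth-muscle-like over fibroblast-like on the right, undamaged (grey circles) and 7 days after LAD ligation (red triangles). Dotted lines mark 1.5-fold, and Ndufa4 lies below the lower line in all 4 sets while most other members lie above 0.

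Smooth-muscle-like cells differed more from fibroblast-like cells. The summed level was 1.92-fold (1.89 to 1.95) higher in undamaged hearts and 2.12-fold (2.099 to 2.142) higher after ligation. Undamaged, 59 of 74 members were higher and 1 lower, where 18.3% of 4907 genes were higher and 32.0% lower. After ligation 64 of 75 were higher and 1 lower, where 18.8% of 7778 genes were higher and 26.8% lower. The median log2 ratio of the members was 0.88 and 1.10, beside -0.14 and -0.05 for all genes. By complex the undamaged ratios were 1.63 for I, 1.99 for II, 2.24 for III, 2.06 for IV and 2.04 for V. After ligation they were 1.84, 2.43, 2.41, 2.26 and 2.21. Complex I, counted with Ndufa4, had the lowest ratio of the 5 complexes in both libraries, and its interval undamaged (1.58 to 1.68) lay below those of the others. All 8 members of complex III passed 1.5-fold in both libraries.

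Sdhc, a membrane anchor of complex II, had the highest undamaged ratio among members with at least 100 UMIs, at 61.8 CPM in fibroblast-like and 239 in smooth-muscle-like cells (3.87, 3.09 to 4.81). After ligation it was at 68.5 and 265 (3.87, 3.37 to 4.44). Cox8a was at 2435 CPM in smooth-muscle-like cells undamaged and 2826 after ligation, ratios of 3.54 and 3.74. Atp5b was at 1934 and 1898, ratios of 3.52 (3.260 to 3.795) and 4.24 (4.03 to 4.46). These 3 genes had the highest ratios among members with at least 100 UMIs in both libraries. At the low end beside Ndufa4 were Ndufv3, with ratios of 0.760 undamaged and 1.14 after ligation, and Atp5g1, with 0.945 and 1.24.

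Set against each other within a library, pericyte-like cells were below smooth-muscle-like cells, by a summed ratio of 0.817 (0.797 to 0.838) undamaged and 0.715 (0.707 to 0.724) after ligation. Undamaged, 0 of 74 members were past 1.5-fold higher and 9 were lower, where 30.8% of 4235 genes were higher and 14.8% lower. After ligation 2 of 77 were higher and 24 lower, where 25.8% of 8076 genes were higher and 8.88% lower. The median log2 ratio of members was -0.27 and -0.41, beside 0.25 and 0.23 for all genes. The pair higher after ligation, named after their values were seen, were Atp5sl and Cox7a1 on 39 and 32 UMIs, and both intervals include 1. Sdhc was at 0.462 (0.302 to 0.693) undamaged and 0.529 (0.449 to 0.624) after ligation. Ndufs4, a complex I subunit of the NADH-binding arm, went the other way, at 168 CPM in pericyte-like and 126 in smooth-muscle-like cells undamaged and at 210 and 169 after ligation, where its ratio was 1.25 (1.04 to 1.49). The undamaged interval (0.884 to 2.01) includes 1. With cells held to at most 5% mitochondrial UMIs the count lower after ligation was 9 of 74.

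Ndufa4 was the exception of the set. Though named for complex I, its protein is now known as a subunit of complex IV. It was at 373 CPM in fibroblast-like, 30.2 in pericyte-like and 187 in smooth-muscle-like cells of undamaged hearts, and at 396, 70.6 and 244 after ligation. The pericyte-like level was 0.0809 (0.0370 to 0.154) of the fibroblast-like level undamaged, resting on 9 UMIs, and 0.178 (0.152 to 0.208) after ligation, on 168. Smooth-muscle-like cells held 0.503 (0.395 to 0.631) and 0.616 (0.540 to 0.701). At least 1 Ndufa4 UMI was seen in 3.93% of undamaged pericyte-like cells, at a median depth of 1573 UMIs, and in 70.7% of fibroblast-like cells, at 3655. Free RNA in droplets can place UMIs in cells that do not express a gene, and no class here is known to lack Ndufa4, so its background share has no reference.

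Ndufa4l2, the paralogue of Ndufa4 that is induced by hypoxia in many tissues, had the opposite distribution. It was at 232 CPM in fibroblast-like, 4050 in pericyte-like and 2566 in smooth-muscle-like cells undamaged, and at 312, 3918 and 3310 after ligation. The pericyte-like ratio to fibroblast-like cells was 17.5 (16.3 to 18.7) undamaged and 12.6 after ligation. Among these cells pericyte-like cells thus had the lowest Ndufa4 and the highest Ndufa4l2 level in each library. Ndufa4l2 and Cox4i2 were left out of the 80 genes by the rule and are known markers of mural cells, so their difference between classes named from mural markers is a description.

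Subunit 4 of complex IV, made from Cox4i1 or from the alternative gene Cox4i2, showed no such exchange. Cox4i2 was at 35.5, 1948 and 1162 CPM in fibroblast-like, pericyte-like and smooth-muscle-like cells undamaged and at 10.8, 845 and 735 after ligation. Cox4i1, the member with the most UMIs in the set (31164), was at 904, 1281 and 1458 undamaged and at 1104, 1603 and 1995 after ligation. Both forms were therefore higher in the mural classes than in fibroblast-like cells, Cox4i2 by 54.8-fold and 32.7-fold undamaged and Cox4i1 by 1.42-fold and 1.61-fold.

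**Figure D3:**
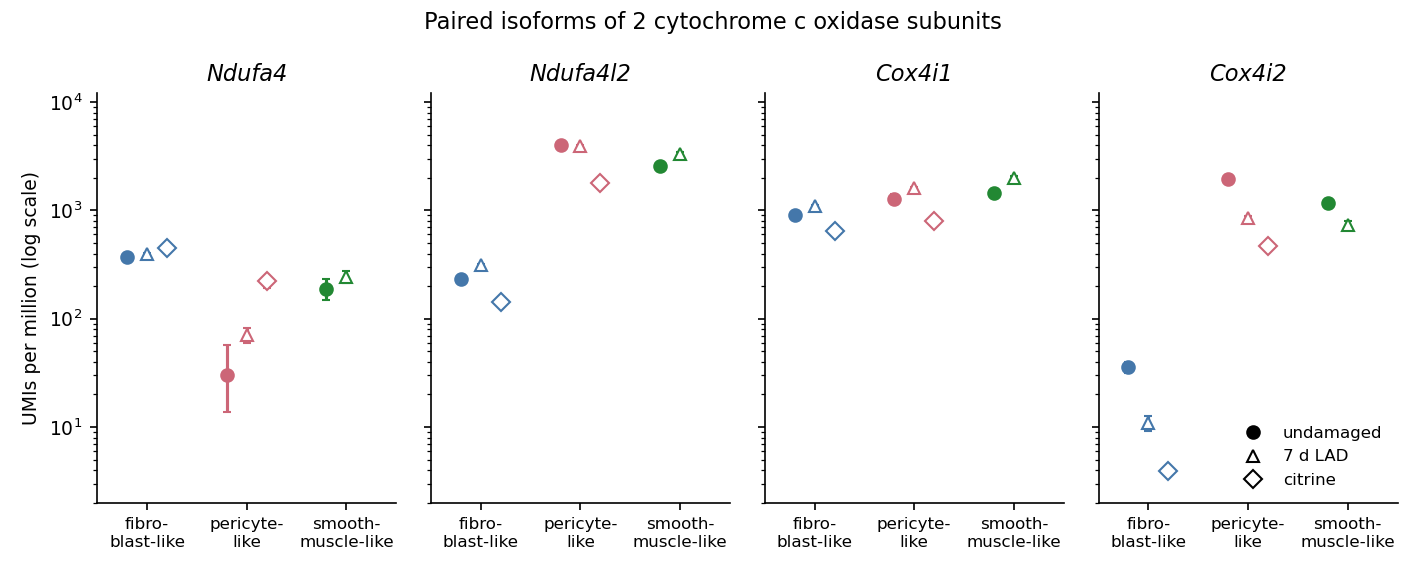
CPM on a log axis for Ndufa4, Ndufa4l2, Cox4i1 and Cox4i2 in each class of the undamaged and ligated tdTomato libraries and the citrine library, with exact 95% counting intervals. Ndufa4 is lowest where Ndufa4l2 is highest, in pericyte-like cells, while Cox4i1 and Cox4i2 are both higher in mural than in fibroblast-like cells.

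The heart and skeletal muscle isoforms of complex IV were close to absent. Cox6a2 had 0 UMIs in undamaged pericyte-like and 1 in smooth-muscle-like cells, and 4 and 2 after ligation. Cox8b had 0 and 0 undamaged and 1 and 0 after ligation. A count of 0 allows up to 10.1 CPM in undamaged pericyte-like cells and 7.40 in smooth-muscle-like cells. Cox7a1 was at 9.68, 16.8 and 17.3 CPM in the 3 classes undamaged, on 88, 5 and 7 UMIs. Their ubiquitous counterparts carried nearly all of the signal: Cox6a1 was at 469, 741 and 999 CPM, Cox7a2 at 364, 738 and 923, and Cox8a at 688, 1693 and 2435. Cox6b1 was at 444, 694 and 896, and its testis-type relative Cox6b2 at 8.58, 3.35 and 27.1.

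The 3 genes for subunit c of ATP synthase encode the same mature protein and differ in their import sequences, and they did not move together. Atp5g3 was at 171, 426 and 543 CPM in fibroblast-like, pericyte-like and smooth-muscle-like cells undamaged. Atp5g1 was at 318, 365 and 301, and Atp5g2 at 231, 241 and 488. Atp5g3 alone of the 3 was past 1.5-fold higher in pericyte-like cells, by 2.49 (2.07 to 2.99) undamaged and 2.22 after ligation. How reads that fit several near-identical genes or processed pseudogenes were treated is not given in the sources used here, and it could affect the split within such families.

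Genes around the respiratory chain gave a mixed picture in the same cells. Of the TCA cycle genes, which make the NADH and succinate that the chain oxidises, 13 of 16 compared were past 1.5-fold higher and none lower in undamaged pericyte-like cells, and 15 of 16 were higher in smooth-muscle-like cells. Of the mitochondrial carriers and cytochrome c list, 13 of 20 were higher in pericyte-like and 15 of 20 in smooth-muscle-like cells. Slc25a5, which exchanges ADP for ATP across the inner membrane, was at 205, 791 and 1179 CPM in the 3 classes. Atpif1, an inhibitor of ATP synthase running in reverse, was at 226 in fibroblast-like and 989 in smooth-muscle-like cells. Glycolysis genes were also higher, 8 of 12 in pericyte-like and 6 of 12 in smooth-muscle-like cells. Ldhb, a lactate dehydrogenase subunit, was at 89.6, 526 and 291 CPM, while Hk2, a hexokinase, was at 43.2 in fibroblast-like cells and had no UMI in pericyte-like cells. Fatty acid oxidation genes were past the threshold upward in 5 of 14 and 7 of 16.

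The list encoded by mitochondrial DNA divided the mural classes. Only 2 of 12 such genes were past 1.5-fold higher in undamaged pericyte-like cells, with a summed ratio of 1.31, while 10 of 12 were higher in smooth-muscle-like cells, with 1.74. After ligation the counts were 1 of 13 and 12 of 13. Mitochondrial ribosomal proteins were past the threshold upward in 16 of 54 and downward in 2 in undamaged pericyte-like cells, and in 11 of 62 and 4 in smooth-muscle-like cells. Respiratory chain assembly factors were higher in 5 of 15 and 4 of 18, and lower in 2 in each class. These last shares of higher genes lie nearer to the background shares given above than those of the TCA cycle list. Cytosolic ribosomal protein genes went the other way, with 72 of 80 past 1.5-fold lower in pericyte-like and 12 of 81 in smooth-muscle-like cells undamaged, and 15 and 5 of 82 after ligation. Dissociation and immediate early genes were lower in 15 of 18 in pericyte-like cells undamaged and 17 of 18 after ligation. In smooth-muscle-like cells they changed side between the libraries, with 9 of 18 higher and 1 lower undamaged (summed ratio 1.70) and 2 higher and 9 lower after ligation (0.738). Regulators of mitochondrial biogenesis had few UMIs, and 12 of 16 could be compared in pericyte-like cells after ligation, with 3 higher and 1 lower. Ppargc1b, a coactivator of nuclear and estrogen-related receptors, was at 43.7 CPM in pericyte-like and 3.19 in fibroblast-like cells after ligation, 13.7-fold apart. Of the hypoxia response list, 4 genes were compared in undamaged pericyte-like cells, with 1 higher and 2 lower. The higher gene, Epas1, which encodes a hypoxia-inducible factor, was at 44.4, 335 and 533 CPM in the 3 classes undamaged.

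The citrine library allowed a comparison over separate hearts. Hashtags gave 7051 of its 10838 kept cells to 1 heart each, with 14, 187 and 14 pericyte-like and 1368, 3082 and 2343 fibroblast-like cells in hearts 1, 2 and 3. The 80 genes took 2.51%, 2.43% and 2.25% of UMIs in pericyte-like cells and 1.90%, 1.86% and 1.98% in fibroblast-like cells. The means were 2.40% ± 0.135 and 1.91% ± 0.0574 (SD, n = 3), and the pericyte-like share was higher in 3 of 3 hearts without overlap between the groups. The log2 ratio was 0.41, 0.38 and 0.19, beside 0.65 in the undamaged tdTomato library. In the citrine pericyte-like cells the fibroblast markers stood at 38.1% of the fibroblast-like level, against 5.07% in the undamaged tdTomato library. The citrine class also held endothelial transcripts. Cdh5 and Kdr were at 31.7 and 28.9 CPM, against 0.0106 and 0.591 in citrine fibroblast-like cells. In undamaged tdTomato pericyte-like cells both were at 0. Emcn was at 13.4 CPM there, on 4 UMIs, and at 9.31 in the citrine class, on 10, counts too low to rank. Smooth muscle markers summed to 25025 CPM in heart 1, 1472 in heart 2 and 15275 in heart 3, and pericyte markers to 13450, 16759 and 12012. By these markers the 14-cell sums of hearts 1 and 3 held more smooth muscle than pericyte transcripts, while that of heart 2 held more pericyte transcripts. The 3 sums thus differ in the mural cells they hold, here and in the edgeR test of these hearts. The part of the fibroblast, endothelial and smooth muscle transcripts in the ratio was not tested.

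Gene by gene, edgeR's quasi-likelihood test with the heart as a block called 0 of the 80 members higher and 1 lower in pericyte-like cells at a Benjamini-Hochberg adjusted p under 0.05. Of all 13441 genes tested, 4.32% were called higher and 4.46% lower. At an unadjusted p under 0.05, 2 members passed, Ndufa4 and Ndufv3, both lower. DESeq2 called 0 members and had 1 at an unadjusted p under 0.05. The median log2 fold change was 0.09 for members and -0.17 for all genes. In simulated counts of the same size the test called 10 of 100 genes changed 2-fold and 91 of 100 changed 6-fold. The changed genes were drawn from genes of all levels above a low minimum, not from the members. Their spread was set in advance, with no difference in mural cells between hearts. These shares therefore do not give the part of the members' changes that the test would find.

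Ndufa4 was the member called. Its level was 482, 433 and 492 CPM in fibroblast-like cells of hearts 1 to 3 and 230, 201 and 394 in pericyte-like cells, on 12, 181 and 31 UMIs. All 3 pericyte-like values lay below all 3 fibroblast-like values. The edgeR log2 fold change was -1.11 ± 0.27 (SE), with an adjusted p of 0.00068, and DESeq2 gave an adjusted p of 0.10. With cells held to at most 5% mitochondrial UMIs the edgeR adjusted p was 0.0897, on 10, 116 and 8 pericyte-like cells. Leaving out 1 heart at a time, it ranged from 0.0023 to 0.0465. In cells of 1000 to 3000 UMIs alone the log2 fold change was -2.47 ± 0.50. That window left 7, 84 and 4 pericyte-like cells in hearts 1 to 3. In the same edgeR fit Ndufa4l2 was higher by 3.09 ± 0.24 on the log2 scale (adjusted p 2.98e-34) and Cox4i2 by 5.89 ± 0.37 (adjusted p 1.29e-54). Without the block edgeR gave adjusted p-values of 2.73e-07 and 7.85e-08 for these genes. The fit takes the spread of a gene largely from all genes, so its p-values do not measure that gene's own spread over 3 hearts.

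**Figure D4:**
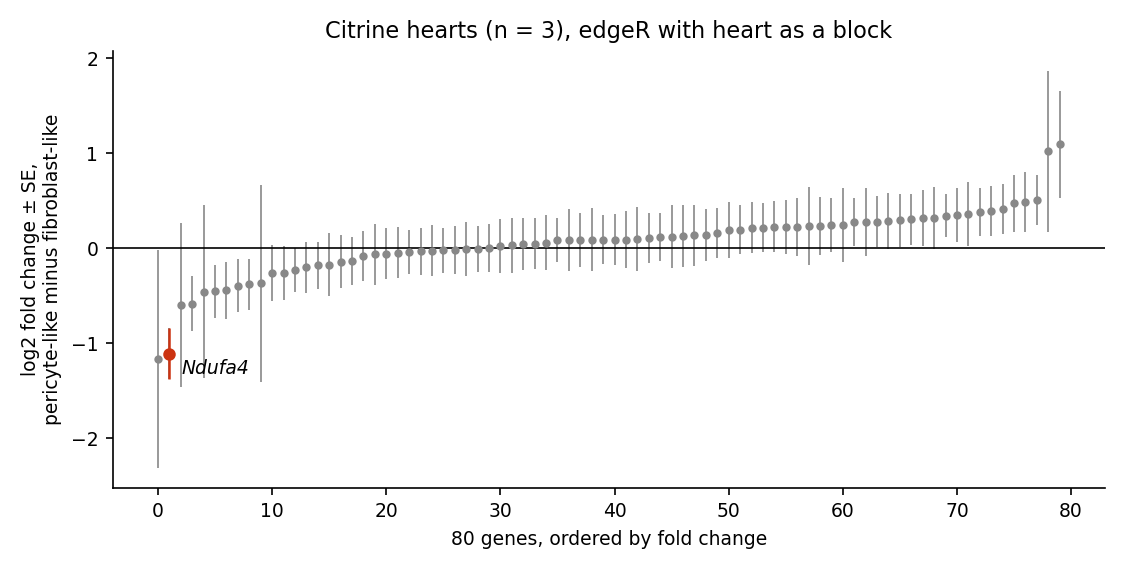
Log2 fold change of each of the 80 genes, pericyte-like minus fibroblast-like, over the 3 citrine hearts (edgeR), ordered from lowest to highest. Bars are standard errors derived from the test statistic and do not show the spread between hearts. Ndufa4, in red at -1.11, is the gene past an adjusted p of 0.05.

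Among the other lists in this edgeR fit, 0 of 20 TCA cycle genes were called, with 0 at an unadjusted p under 0.05, and DESeq2 also gave 0 for both. Of the 13 genes encoded by mitochondrial DNA, edgeR called 0 with 2 at an unadjusted p under 0.05, and DESeq2 gave 0 for both. Glycolysis genes had 4 called higher and 1 lower of 18 by edgeR, and DESeq2 called 1. Cytosolic ribosomal protein genes had 26 of 84 called lower by edgeR and 1 by DESeq2. Dissociation and immediate early genes had 11 of 18 called lower by edgeR and 5 called by DESeq2.

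In the PDGFRa library the 80 genes took 1.72% of UMIs in 11072 fibroblast-like cells, and in the citrine library 1.87% in 10570. Over the 4 hashed PDGFRa hearts the fibroblast-like share ran from 1.65% to 1.88%, with a median of 1.73%. These 4 values mix undamaged and ligated hearts. They leave out 1464 kept cells of this library whose clusters were given no class name. The largest of those clusters, of 1397 cells led by C1qtnf3, Spp1 and Thbs4, had 1.78% in the 80 genes. Over all kept cells given to these hearts the share ran from 1.69% to 1.88%. These shares lie below those of the tdTomato mural classes. Median depths were 7265 and 8122 UMIs per fibroblast-like cell in these libraries, above those of the tdTomato libraries, and levels set side by side across libraries have no test. The labels give kit v2 for every library, but 26.3% of the undamaged tdTomato barcodes opened with 8 bases found in the citrine library, against 89.2% in the other tdTomato library. Whether chemistry differed between these pairs of libraries was not tested.

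Ligation was compared within each class between the tdTomato libraries. In fibroblast-like cells the summed level was the same within counting error, with a ratio of 7 days after ligation to undamaged of 0.997 (0.991 to 1.00). It was 0.965 (0.945 to 0.986) in pericyte-like and 1.10 (1.08 to 1.12) in smooth-muscle-like cells. Single members past 1.5-fold were few. In fibroblast-like cells 6 of 80 were higher and 6 lower, where 7.47% of 11945 genes were higher and 11.0% lower. In pericyte-like cells 4 of 74 were higher and 4 lower, where 12.9% of 4334 genes were higher and 12.6% lower. In smooth-muscle-like cells 5 of 75 were higher and 2 lower, where 13.7% of 4826 genes were higher and 12.0% lower. Each of these shares was near or below its background. The median log2 ratio of members was -0.05, -0.12 and 0.16 in the 3 classes, beside -0.06, -0.07 and 0.02 for all genes. Each contrast rests on 1 library a group, and ligation and library cannot be told apart.

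By complex, complex I was at 0.951 (0.942 to 0.960) of the undamaged level in fibroblast-like cells, 0.897 (0.865 to 0.930) in pericyte-like and 1.07 (1.04 to 1.11) in smooth-muscle-like cells. Complex II was at 0.857 (0.824 to 0.891) in fibroblast-like cells, where Sdha, its flavoprotein, went from 156 to 103 CPM. Complex IV was at 1.06, 1.02 and 1.16 in the 3 classes. No complex moved by 1.5-fold.

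A few members differed between the libraries alike in the 3 classes. Atp5k, a small membrane subunit of ATP synthase, went from 120 to 58.1 CPM in fibroblast-like, from 215 to 87.0 in pericyte-like and from 266 to 155 in smooth-muscle-like cells, ratios of 0.483, 0.405 and 0.580. It was at 269 in fibroblast-like cells of the citrine library, so the undamaged libraries also differed in it. Uqcrfs1, the Rieske iron-sulphur protein of complex III, was at 73.6, 137 and 168 undamaged and at 116, 217 and 259 after ligation, ratios of 1.57, 1.58 and 1.55. Cox5a, a complex IV subunit, had ratios of 1.53, 1.47 and 1.92, and Atp5d, the delta subunit of ATP synthase, 1.51, 1.46 and 1.63. Atp5g2 had 1.58, 1.88 and 1.52. The mitochondrial gene mt-Nd3 differed in the same way, at 0.452, 0.406 and 0.477 of the undamaged level. The 3 contrasts come from the same 2 libraries, so their likeness is not independent support.

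Ndufs1, a complex I subunit, was past 1.5-fold lower in fibroblast-like (0.642, 0.556 to 0.742) and pericyte-like cells (0.613, 0.406 to 0.957). In smooth-muscle-like cells it went from 106 to 82.8 CPM. Other members passed 1.5-fold in 1 class. In pericyte-like cells Cox7a2l went from 349 to 710 CPM (2.04, 1.67 to 2.51) and Ndufa4 from 30.2 to 70.6 (2.34, 1.203 to 5.205). Of the 168 Ndufa4 UMIs after ligation, 59 came from a cluster of 37 cells with fibroblast transcripts, described last. Without it Ndufa4 was at 50.8 CPM (1.68, 0.855 to 3.78), an interval that includes 1. Ndufb4, an accessory subunit of complex I, went from 349 to 229 (0.658, 0.533 to 0.819) in the same cells. In smooth-muscle-like cells Ndufa3 went from 239 to 138 (0.575, 0.440 to 0.754) and Atp5g1 from 301 to 482 (1.60, 1.31 to 1.97). In fibroblast-like cells the muscle isoform Cox7a1 went from 9.68 to 3.47 (0.358, 0.248 to 0.513), and Cox8b from 58 to 15 UMIs. Some moved the same way, below the threshold, in other classes. Cox7a2l went from 433 to 574 CPM in fibroblast-like and from 491 to 732 in smooth-muscle-like cells. In fibroblast-like cells Ndufa3 went from 144 to 101 and Atp5g1 from 318 to 388. Ndufb4 was at 254 in smooth-muscle-like cells of both libraries. Passing in 1 class therefore does not make a difference particular to it. No test of a difference between classes was possible with 1 library a group.

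**Figure D5:**
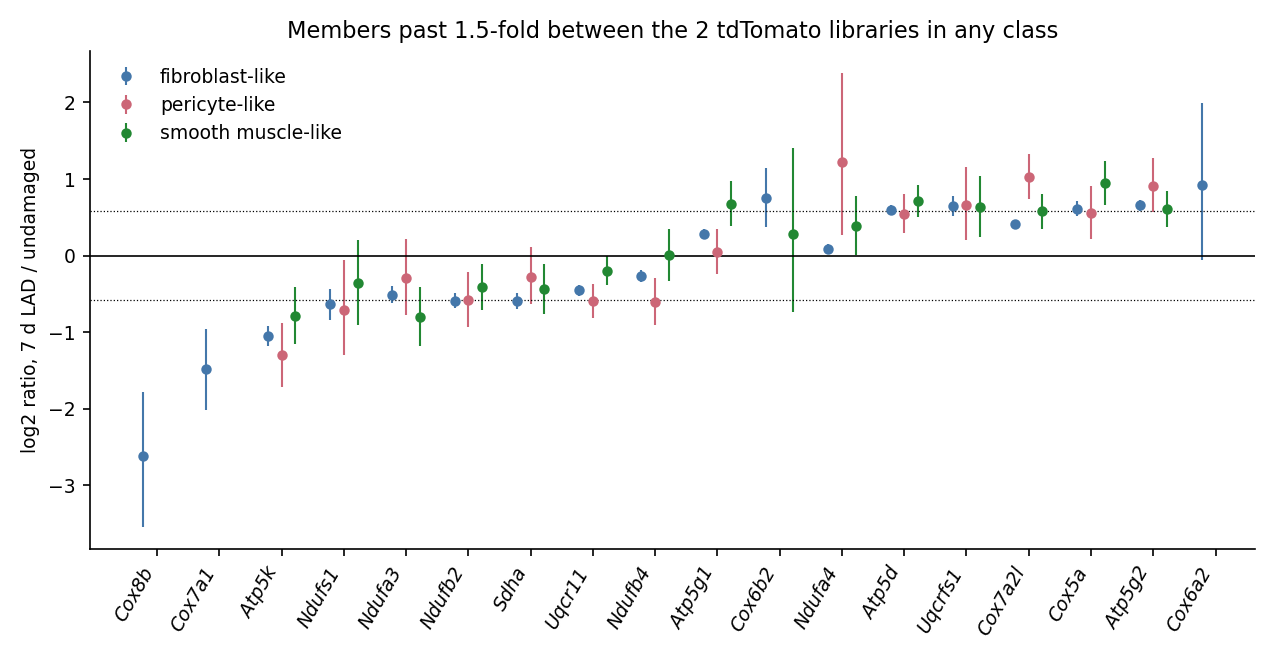
Log2 ratio of scaled UMIs, 7 days after LAD ligation over undamaged (y axis), with exact 95% counting intervals, for each member past 1.5-fold (dotted lines) in any of the 3 classes. Atp5k is below the lower line in all 3 classes and Uqcrfs1 and Atp5g2 are above the upper line in all 3.

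The summed level of most lists around the chain stayed within 1.5-fold between the libraries. In fibroblast-like cells TCA cycle genes were at 0.878, fatty acid oxidation genes at 0.783 and glycolysis genes at 0.848 of the undamaged level. Cytosolic ribosomal protein genes were at 1.27 in fibroblast-like, 1.81 in pericyte-like and 1.28 in smooth-muscle-like cells. Hypoxia response genes were at 0.617 in fibroblast-like and dissociation and immediate early genes at 0.606 in smooth-muscle-like cells. With mitochondrial and ribosomal protein genes taken out of the total, the pericyte-like log2 ratio after ligation went from -0.05 to 0.05, so its direction depends on the scaling.

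The pericyte-like cells after ligation formed 3 clusters that differed more from each other than the libraries did. The largest, of 487 cells led by Art3, Kcnj8, Abcc9 and Vtn, had 3.67% of its UMIs in the 80 genes (3.63 to 3.70). A cluster of 279 cells led by Rgs16, Igfbp5 and Colec11 had 2.77% (2.74 to 2.80). The third, of 37 cells, had 2.43% (2.37 to 2.49). Undamaged pericyte-like cells formed 1 cluster at 3.25%. Between the first and second clusters Ndufa4l2 was at 5313 and 3020 CPM, Cox4i2 at 1342 and 473 and Ndufa4 at 30.1 and 71.0. Their median depths were 1975 and 3651 UMIs and cytosolic ribosomal protein genes took 9.42% and 16.3% of their UMIs, and the part of either in the difference was not tested. Clusters share 1 library and are defined by the cells' own genes, so these values are descriptions.

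The cluster of 37 cells also held fibroblast transcripts. Its fibroblast markers summed to 38828 CPM, 90.6% of the fibroblast-like level, with a median of 5883 UMIs per cell, and Ndufa4 was at 253 CPM. Without it, the log2 ratio of the summed level after ligation was 0.64 against fibroblast-like cells, with 48 of 78 members higher and 1 lower where 26.6% of 9800 genes were higher and 17.6% lower, and -0.45 against smooth-muscle-like cells. The ratio of ligated to undamaged pericyte-like cells was then -0.02. Whether these cells are doublets was not tested.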

How the data were processed

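UMI counts by gene and cell barcode were deposited, as whole numbers without normalisation. Per the labels' protocols they came from the 10x Genomics 3' kit v2, NextSeq 500 sequencing and Cell Ranger with a modified mm10 genome (Cell Ranger 3.0.2 per the file headers of the citrine and PDGFRa counts). Seurat 2.1 is also named in the submitters' processing notes. Other deposited columns name genes and barcodes.

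Kept cells had 500 or more genes, 1000 or more UMIs and no more than 10% of UMIs from mitochondrial genes. Clustering was run on 1 library at a time (scanpy 1.11.5, leidenalg 0.10.2, Python 3.11.15; 2000 variable genes, 30 principal components, 20 neighbours, resolution 1). The clustering left out 467 genes: the members, mitochondrial and ribosomal protein genes and the listed pathway genes. A class name required 3 markers or more that were seen in 25% of the cluster's cells. No doublet caller was run.

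UMIs were summed per class and scaled to the class total. Ratios carry exact conditional binomial 95% intervals, shares exact Clopper-Pearson intervals and levels exact Poisson intervals (scipy 1.17.1). A count of 0 allows up to 3 counts. UMIs mark molecules, but intervals and limits cover counting error only. Genes entered with at least 20 UMIs in the sums and at least 10 expected in the smaller sum.

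A citrine cell was given to a heart when its leading hashtag had at least 10 UMIs and at least 3 times the next. Sums per heart were tested with edgeR 4.0.16 (R 4.3.3; TMM, quasi-likelihood, heart as a block, since both classes come from the same hearts), tested on simulated data, with DESeq2 1.42.0 as an alternative. Standard errors for edgeR were the size of the log2 fold change divided by the square root of its F statistic.

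The named genes were drawn from those with the most UMIs per complex, isoform families with a muscle form, and the 3 highest and 3 lowest ratios with at least 100 UMIs in each comparison. Other members past 1.5-fold were chosen after their values were seen. Not every gene of these groups is named. From each pathway list, the 2 highest and 2 lowest ratios were kept. The members and lists were chosen with earlier results of these data known. The 12 lists included genes encoded by mitochondrial DNA, hypoxia isoforms, assembly factors, biogenesis regulators, TCA cycle, fatty acid oxidation and glycolysis. The others were mitochondrial transport and cytochrome c, hypoxia response, dissociation and immediate early genes with heat shock genes, mitochondrial ribosome and cytosolic ribosome. Alternatives were a limit of 5% mitochondrial UMIs, totals without mitochondrial and ribosomal protein genes or without the 50 most abundant genes, cells of 1000 to 3000 UMIs, resolution 0.5, other filters on low counts, no block and each heart left out.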

Additional observations from a re-analysis of the deposited data

Results flagged for a closer look

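The summed level of the 80 genes 7 days after ligation, relative to undamaged tdTomato cells, lay on opposite sides of 1 in the mural classes. It was 0.965 (95% counting interval 0.945 to 0.986) in pericyte-like cells and 1.10 (1.08 to 1.12) in smooth-muscle-like cells. The difference between the classes was not tested, since each group was 1 library of 3 pooled hearts. Both ratios are small beside the differences between classes within a library, and the pericyte-like value turned direction under 2 of the alternatives given below.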

How the results depend on the processing

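The class differences kept their direction under every alternative that gave a value. All values here are log2 ratios of the summed level unless a count is named. Pericyte-like over fibroblast-like cells (0.65 undamaged, 0.60 after ligation) moved to 0.54 and 0.52 with mitochondrial and ribosomal protein genes out of the total, to 0.50 and 0.49 without the 50 most abundant genes, and to 0.75 and 0.77 in cells of 1000 to 3000 UMIs. At resolution 0.5 the undamaged value was 0.82, for a class of 341 cells that also took in the smooth-muscle-like cells. Smooth-muscle-like over fibroblast-like cells (0.94 and 1.08) moved to 0.87 and 0.99 with at most 5% mitochondrial UMIs and to 0.83 and 0.98 without the 50 most abundant genes. It was 1.05 after ligation on the total without mitochondrial and ribosomal protein genes, and 1.02 undamaged in cells of 1000 to 3000 UMIs. Pericyte-like over smooth-muscle-like cells (-0.29 and -0.48) moved to -0.24 and -0.39 with at most 5% mitochondrial UMIs, to -0.38 and -0.53 on the reduced total, to -0.37 and -0.54 without the 50 most abundant genes, and to -0.32 after ligation in cells of 1000 to 3000 UMIs.

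Ligation ratios were less stable. In pericyte-like cells the value of -0.05 became 0.048 on the reduced total and 0.10 in cells of 1000 to 3000 UMIs. In that window the median of members also turned from -0.12 to 0.0346. The cause of these turns was not tested. At resolution 0.5 the value was -0.22, but the undamaged class then also held the smooth-muscle-like cells. That value is therefore not one of pericyte-like cells alone. In fibroblast-like cells (-0.00) it was 0.0719 on the reduced total, -0.013 without the 50 most abundant genes and 0.0832 in cells of 1000 to 3000 UMIs. In smooth-muscle-like cells (0.14) it was 0.11 with at most 5% mitochondrial UMIs and 0.20 on the reduced total. Leaving out the pericyte-like cluster with fibroblast transcripts, an alternative chosen after seeing the data, gave 0.64 for pericyte-like over fibroblast-like cells after ligation, -0.45 over smooth-muscle-like cells and -0.0159 for ligation in pericyte-like cells.

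Counts of members past 1.5-fold changed by over 1.5 times in these cases. After ligation, those lower in pericyte-like than in smooth-muscle-like cells went from 24 to 9 with at most 5% mitochondrial UMIs and also in cells of 1000 to 3000 UMIs, and those higher from 2 to 0 under both and with a minimum of 100 UMIs. For ligation in smooth-muscle-like cells, 5 higher and 2 lower became 2 and 4 with at most 5% mitochondrial UMIs, and 5 were lower with no filter. In pericyte-like cells 4 higher and 4 lower became 1 and 7 at resolution 0.5, where the undamaged class also held the smooth-muscle-like cells. On the reduced total and in cells of 1000 to 3000 UMIs 2 were lower, and 7 were higher with no filter. In fibroblast-like cells 6 lower became 3 on the reduced total. With no filter, those lower than in fibroblast-like cells went from 1 in each comparison to 4 and 2 in pericyte-like and 2 and 3 in smooth-muscle-like cells.

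Over the citrine hearts the 1 member called became 0 with DESeq2 (380 of all genes higher and 218 lower), 0 with at most 5% mitochondrial UMIs (404 and 303) and 3 with no replicate block (845 and 1025). Leaving out each heart gave 1 called each time, and a log2 fold change for Ndufa4 between -1.30 and -0.94. In cells of 1000 to 3000 UMIs it was -2.47 (adjusted p 3.29e-05 by edgeR), with 148 of 5079 genes higher and 335 lower. The 5% limit left 10, 116 and 8 pericyte-like cells in hearts 1 to 3, and this depth window left 7, 84 and 4. Without heart 2, which holds most pericyte-like cells, 196 genes were called higher and 373 lower, against 580 and 599. The blocked fit pairs the classes of 1 heart. At resolution 0.5 the undamaged smooth-muscle-like cells joined a pericyte-like cluster of 341 cells, so comparisons with undamaged smooth-muscle-like cells gave no value. Depth limits the mural values: undamaged pericyte-like cells held 298258 UMIs, and the pericyte-like sums of citrine hearts 1 and 3 held 52267 and 78755.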
